A study of Danio rerio with 6 samples.

Results

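The claudin genes of the zebrafish (Danio rerio) were compared between wild-type (WT) embryos and embryos that lack bcas2 (bcas2-KO), at 3 days post fertilization (dpf). They were taken by name: every gene whose symbol in the deposited table begins with cldn, apart from cldnk and the symbols that begin with cldnd, and with at least 15 counts over the 6 libraries. This gave 29 claudin genes among the 32520 genes of the table. Of the 34 rows named cldn, the rule left out cldnk, cldnd, cldnd1a and cldnd1b by name and cldn18, the relative of a stomach and lung claudin of mammals, because it had 0 counts in every library. Each library was made from total RNA of 10 embryos of 1 genotype, with 3 pools of WT and 3 pools of bcas2-KO embryos. The labels give no strain, no sex, no description of the bcas2 allele and no number of clutches, and they call the pools of a genotype biological replicates, so the p-values measure the spread between these pools. The labels name expression and splicing changes after loss of bcas2 as the question, and only gene levels are described here.

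Claudins are small membrane proteins that span the membrane several times and join head to head across the gap between neighbouring epithelial or endothelial cells. Together with occludin and the scaffold proteins of the ZO family they build the tight junction, the seal that limits what passes between cells. Some claudins tighten this seal and others form pores for ions, so each epithelium carries its own combination. In zebrafish, members of the family are known in the skin, the gut, the lateral line, the ear and the vessels and ventricles of the brain. The product of bcas2 is a component of the Prp19 complex, a part of the spliceosome.

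Gene counts summed to 35560010 to 49526995 in the WT libraries and to 32822716 to 40462653 in the bcas2-KO libraries. The targeted gene bcas2 had 1503, 1189 and 916 counts in WT replicates 1 to 3 and 146, 125 and 146 in bcas2-KO replicates 1 to 3, a log2 fold change of -2.94 (SE 0.13). Lens and retina transcripts set 2 libraries apart. A list of 10 lens and retina markers, including the crystallin gene crybb1 and the cone opsin gene opn1sw1, summed to 234.2 CPM (counts scaled to a common library total) in WT replicate 1 and 191.9 CPM in bcas2-KO replicate 3, and to 2.89 to 7.18 CPM in the other 4 libraries. In bcas2-KO replicates 1 and 2 opn1sw1 was at 0. Claudin calls that change without these 2 libraries are given with their values. The other 4 libraries held such transcripts at a low level, and are named below as the 4 libraries without lens and retina transcripts. Markers of periderm, basal epidermis, intestine, pronephros, ear and endothelium were present in all 6 libraries, which the labels describe as whole embryos. Hatching gland enzymes varied within WT, with he1.1 at 6.52, 39.6 and 0.479 CPM in WT replicates 1 to 3.

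Levels of the family covered a wide range. Levels of different genes are compared in FPKM, the deposited values that are scaled for gene length and library size. In order of the mean over all 6 libraries, the highest was cldni at 292 ± 33.8 FPKM in WT and 253 ± 31.8 FPKM in bcas2-KO (mean ± SD, n = 3 pools each, as throughout). Next came cldn1, known in mammals as a component of the epidermal barrier, at 235 ± 19.2 FPKM in WT. In WT, cldnb, whose promoter is used to mark the lateral line primordium of zebrafish, stood at 165 ± 71.6 FPKM, and cldne, known from the enveloping layer of the early embryo, at 148 ± 28.1 FPKM. The levels of cldnb and cldne did not differ from each other beyond their spread. The gut epithelium gene cldn15la stood at 108 ± 4.72 FPKM, and cldn7a, next in the order over all libraries, at 120 ± 48.4 FPKM in WT. The first 5 of these genes together took 64.8% to 66.7% of the summed claudin FPKM in the WT libraries and 66.4% to 69.2% in the bcas2-KO libraries. The lowest were cldn23b, cldng, cldn17 and cldn10a, all with a mean under 1 FPKM over the 6 libraries (0.649, 0.472, 0.305 and 0.276 FPKM).

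**Figure D1:**
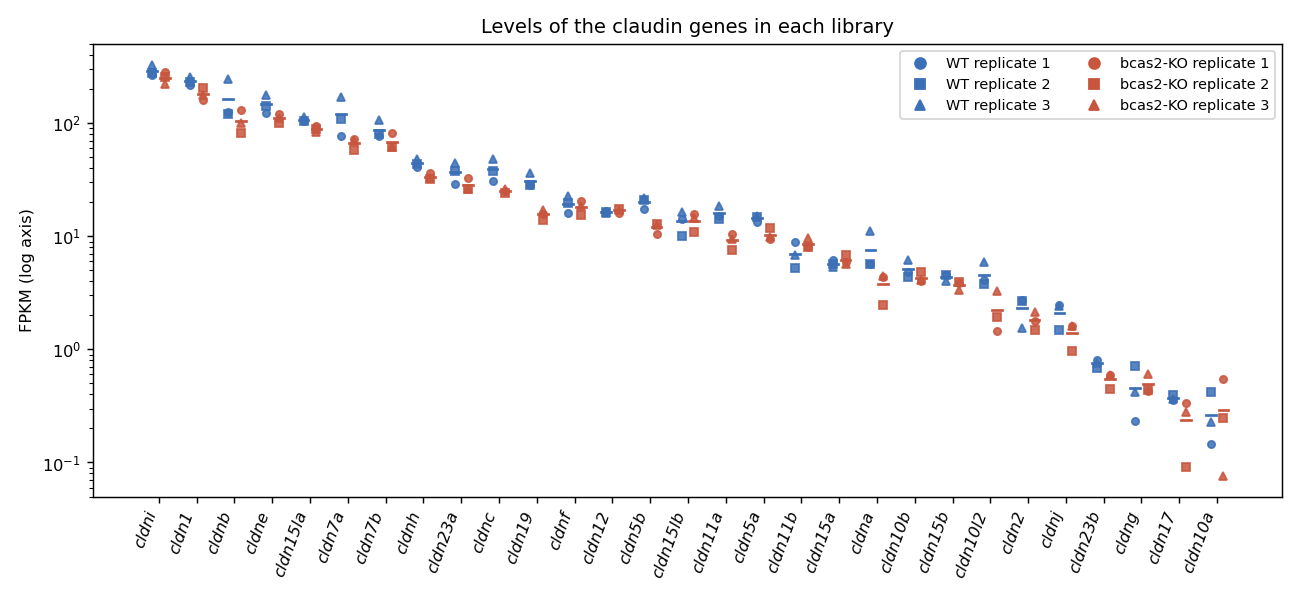
FPKM on a log axis of the 29 claudin genes, in order of the mean over all libraries; each point is 1 library (blue WT, red bcas2-KO, symbols for replicates 1 to 3) and each short line the mean of 3. Levels run from 273 FPKM for cldni to 0.276 FPKM for cldn10a, and the red points of cldn19, cldn5b and cldn11a lie under all blue points.

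Claudin transcripts were lower in bcas2-KO where they changed. Of the 29 genes, 27 passed the filter on low counts and were tested, and 8 of the 27 (29.6%) fell at an adjusted p under 0.05 in edgeR's quasi-likelihood test, adjusted over all 22347 genes tested. Among all genes tested, 9.01% were called lower. No claudin gene was called higher by edgeR or by DESeq2, beside 10.6% of all genes with edgeR. At an unadjusted p under 0.05, 13 of the 27 were lower and 0 higher. The share of all genes at that level was not worked out, so such counts, here and below, have no background beside them. The genes that fell were cldn19, cldn5b, cldn11a, cldnc, cldn5a, cldnh, cldn1 and cldn15la, by 1.19-fold to 1.96-fold. The median log2 fold change of the 27 genes was -0.39, beside -0.02 over all genes tested, and 23 of the 27 (85.2%) had a negative value, beside 52.2% of all genes. All 3 bcas2-KO libraries lay under all 3 WT libraries in 15 of the 27 (55.6%), beside 19.4% of all genes. In whole embryos, fewer cells of a type and less RNA per cell cannot be told apart. With all 6 libraries 2013 of 22347 genes were called lower. The count of claudins called lower was 3 without WT replicate 2, beside 717 of 22604 genes tested. It was 5 without WT replicate 3 (1282 of 22687 genes) and 4 without bcas2-KO replicate 1 (795 of 22764). It was 5 without bcas2-KO replicate 2 (1340 of 22692) and 4 without bcas2-KO replicate 3 (1067 of 22686). Without WT replicate 1 it was 10, beside 2358 of 22518 genes lower and 2813 higher. In that fit 1 claudin, cldn11b, was called higher (log2 fold change 0.55, adjusted p = 0.0312 in edgeR). In the 4 libraries without lens and retina transcripts 8 claudins were called lower (1604 of 22478 genes), and the median of the claudins was -0.44.

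**Figure D2:**
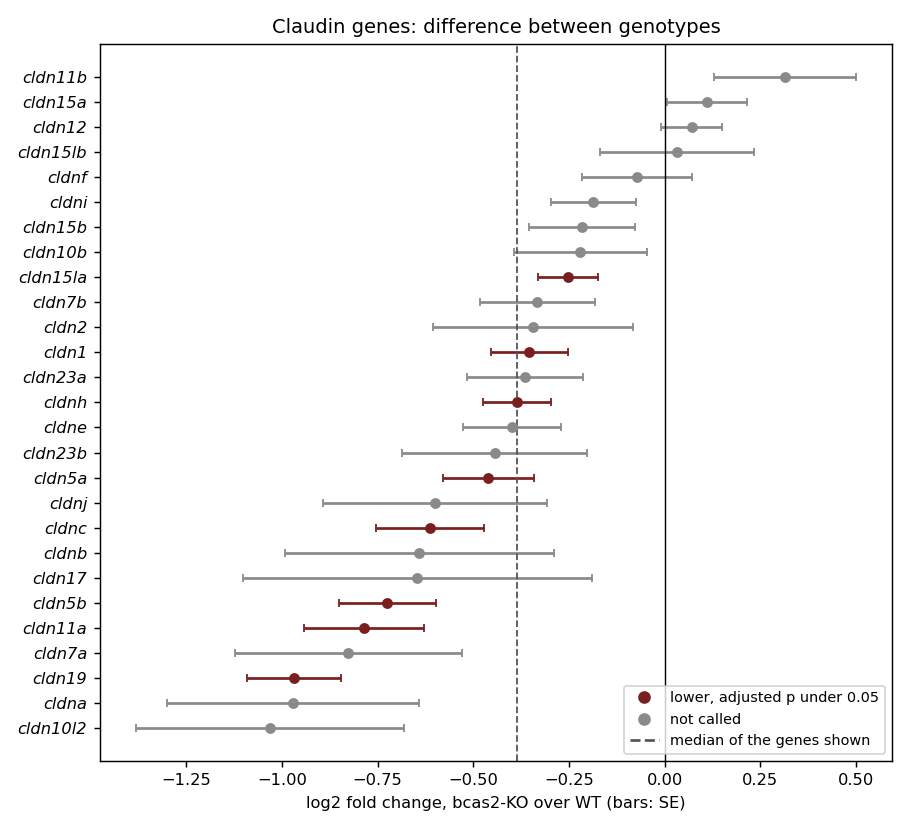
Log2 fold change of bcas2-KO over WT (x axis, bars are SE) for the 27 claudin genes tested, sorted by value; dark red points have an adjusted p under 0.05. The 8 called genes lie between -0.97 and -0.25, and the dashed line marks the median of -0.39.

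The sum over the family was lower in bcas2-KO. The 29 genes summed to 1256, 1348 and 1736 FPKM in WT replicates 1 to 3 and to 1172, 1055 and 1047 FPKM in bcas2-KO replicates 1 to 3. The lowest WT library stood above the highest bcas2-KO library, with a gap smaller than the spread within WT. Of this sum, cldni took 20.3% ± 1.17 in WT and 23.2% ± 1.77 in bcas2-KO, and cldn1 16.4% ± 1.5 and 16.7% ± 2.83. The share of cldn19 was 2.15% ± 0.103 in WT and 1.44% ± 0.171 in bcas2-KO.

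**Figure D3:**
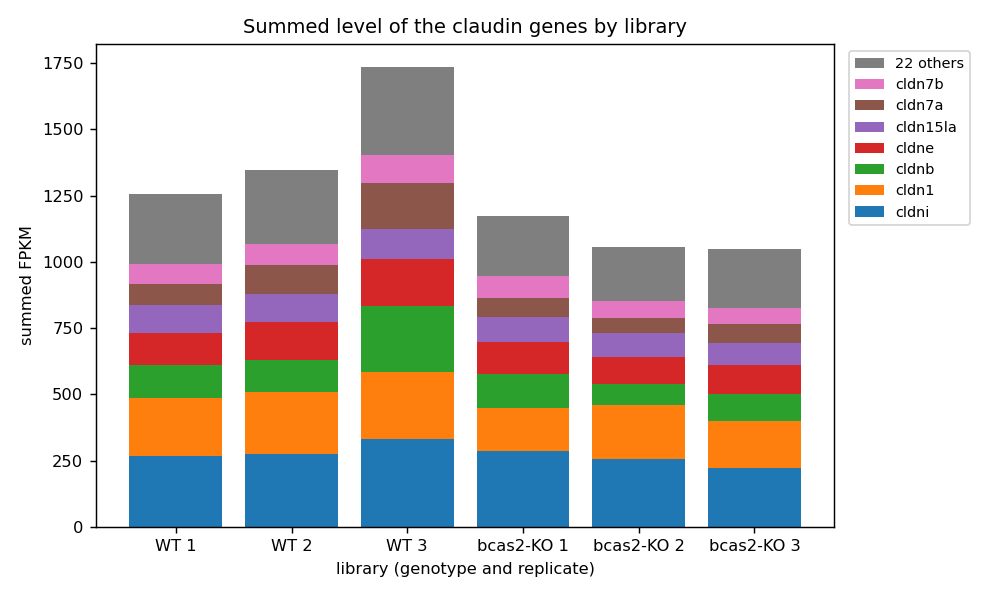
Summed FPKM of the 29 claudin genes (y axis) in each library (x axis), with the 7 most abundant genes coloured and the 22 others in grey. The WT libraries reach 1256 to 1736 FPKM and the bcas2-KO libraries 1047 to 1172 FPKM, and WT replicate 3 is the highest.

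The claudins known from vessels both fell. In mammals claudin 5 seals the endothelium of the brain, and in zebrafish cldn5a is known in brain vessels and in the lining of the brain ventricles. Transcripts of cldn5b (ENSDARG00000014059) were at 12.96, 15.5 and 16.1 CPM in WT replicates 1 to 3 and at 7.78, 9.65 and 9.57 CPM in bcas2-KO replicates 1 to 3. Every bcas2-KO library was under every WT library. The gene was 1.65-fold lower (log2 -0.72, SE 0.13; adjusted p = 0.00479 in edgeR), and the call held without any 1 library (adjusted p 0.0026 to 0.0297).

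Those of cldn5a (ENSDARG00000043716) were at 9.47, 10.3 and 10.6 CPM in WT and at 6.69, 8.31 and 6.98 CPM in bcas2-KO, again with no overlap. The value was 1.38-fold lower (log2 -0.46, SE 0.12; adjusted p = 0.0254 in edgeR). That call was lost without WT replicate 2 (adjusted p = 0.0949), WT replicate 3 (0.0705), bcas2-KO replicate 1 (0.1109) or bcas2-KO replicate 3 (0.0831), and in the 4 libraries without lens and retina transcripts (0.075). Of 10 endothelium markers 3 fell and 0 rose, beside 9.01% lower and 10.6% higher among all genes tested. Their median log2 fold change was -0.30. The list summed to 197.8 to 213.5 CPM in WT and 165.1 to 181.9 CPM in bcas2-KO. Of those that fell, plvapa, for a protein of vessel fenestrae, was at -1.03 and the receptor gene kdrl at -0.31. The 7 markers that were not called included fli1a (-0.08), mfsd2aa (-0.15), slc2a1a (-0.40) and abcb4 (0.06). The part of endothelial cell number in the cldn5 values was not tested.

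The largest fall among the called genes was in cldn19. In mammals claudin 19 is known in the kidney tubule, in the eye and in the myelin sheath of peripheral nerves. Transcripts of cldn19 (ENSDARG00000044569) were at 18.9, 18.5 and 23.6 CPM in WT replicates 1 to 3 and at 10.5, 9.30 and 11.4 CPM in bcas2-KO replicates 1 to 3. The highest bcas2-KO library stood well under the lowest WT library. The gene was 1.96-fold lower, with a log2 fold change of -0.97 (SE 0.12, adjusted p = 0.00114, edgeR), and the call held without any 1 library (adjusted p 0.00125 to 0.0114). Of the libraries that carry the lens and retina transcripts, WT replicate 1 lay between the other WT libraries in cldn19. The other, bcas2-KO replicate 3, was the highest bcas2-KO library. The part of eye cells in the cldn19 values was not tested.

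The claudin 11 genes differed in direction. In mammals claudin 11 forms the tight junctions of central myelin and of Sertoli cells. Transcripts of cldn11a (ENSDARG00000020031) were at 9.12, 8.39 and 11.01 CPM in WT and at 6.32, 4.50 and 5.69 CPM in bcas2-KO. The groups did not overlap, the gene was 1.72-fold lower (log2 -0.79, SE 0.16; adjusted p = 0.00888 in edgeR) and the call held without any 1 library (adjusted p 0.0123 to 0.0313). Its relative cldn11b had 11.5, 6.66 and 8.68 CPM in WT and 10.5, 10.4 and 12.6 CPM in bcas2-KO. These groups overlapped through WT replicate 1, and cldn11b was not called (log2 fold change 0.32, SE 0.19, adjusted p = 0.266), except without that library, as given above; without WT replicate 2 its value was 0.14 (adjusted p = 0.612). Within each library, the FPKM of cldn11b relative to cldn11a was 0.582, 0.367 and 0.365 in WT and 0.768, 1.07 and 1.02 in bcas2-KO. The ratio, picked out after its values were seen, was higher in each bcas2-KO library than in each WT library, and no test is given, since with 3 against 3 libraries an exact permutation test cannot go below 0.1.

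Among genes of skin and other outer epithelia, cldn1 fell and the most abundant claudin, cldni, was not called. Transcripts of cldn1 (ENSDARG00000040045) were at 62.4, 66.0 and 72.3 CPM in WT and at 46.5, 59.0 and 51.4 CPM in bcas2-KO. The groups did not overlap, and the difference was -0.35 on the log2 scale (SE 0.10, adjusted p = 0.0364, edgeR). The call was lost without WT replicate 2 (adjusted p = 0.104), WT replicate 3 (0.0923), bcas2-KO replicate 1 (0.151) or bcas2-KO replicate 3 (0.109), and in the 4 libraries without lens and retina transcripts (0.0869).

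Transcripts of cldni (ENSDARG00000054616) were at 302.3, 305.5 and 366.6 CPM in WT and at 320.2, 285.8 and 250.6 CPM in bcas2-KO. The groups overlapped (log2 fold change -0.19, SE 0.11, adjusted p = 0.269). Those of cldne (ENSDARG00000043128) were at 116.6, 133.2 and 166.7 CPM in WT and at 113.7, 95.6 and 106.5 CPM in bcas2-KO, without overlap but not called (-0.40, SE 0.13, adjusted p = 0.0583). Without WT replicate 1, the lowest WT library, cldne was called (-0.50, adjusted p = 0.0125), as it was in the 4 libraries without lens and retina transcripts (adjusted p = 0.0432) and with DESeq2 (0.0252). Without WT replicate 3, the highest WT library, its value was -0.25 (adjusted p = 0.117).

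Transcripts of cldnb (ENSDARG00000009544) were at 63.4, 59.8 and 122.8 CPM in WT and at 65.4, 40.9 and 51.1 CPM in bcas2-KO. WT replicate 3 stood apart from the other WT libraries, at 1.99 times their mean, and the groups overlapped (log2 fold change -0.64, SE 0.35, adjusted p = 0.268). Without WT replicate 3 the log2 fold change of cldnb was -0.23. WT replicate 3 was also the highest for cldna, which had 5.09, 4.90 and 9.72 CPM in WT and 3.88, 2.20 and 3.94 CPM in bcas2-KO libraries (-0.97, SE 0.33, adjusted p = 0.0802), at 1.95 times the mean of the other WT libraries. Without WT replicate 3 the value of cldna was -0.59. Markers of the periderm, the outer skin layer, were lower as well, with a median log2 fold change of -0.46. Of the 12 markers 9 fell and 0 rose, beside 9.01% lower and 10.6% higher among all genes tested. The list summed to 24527 to 27131 CPM in WT and 17811 to 22082 CPM in bcas2-KO, and its keratin gene krt4 had a log2 fold change of -0.47. Of 7 basal epidermis markers 0 were called by edgeR, 1 by DESeq2 (lower) and 1 was lower at an unadjusted p under 0.05 (median -0.16). The part of skin cell number in the values of these claudins was not tested.

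Of the claudin 3 and claudin 7 relatives, cldnh and cldnc were called lower, and cldn7a and cldn7b were not called with all 6 libraries. In mammals claudin 3 is a sealing claudin of gut, kidney and skin, and RefSeq names cldnh and cldnc as claudin 3 genes. Transcripts of cldnh (ENSDARG00000069503) were at 37.8, 39.4 and 43.9 CPM in WT and at 33.1, 29.5 and 30.0 CPM in bcas2-KO. They fell by 0.39 on the log2 scale (SE 0.09, adjusted p = 0.0161, edgeR), with no overlap. The cldnh call was lost without WT replicate 2 (adjusted p = 0.0562), bcas2-KO replicate 2 (0.0553) or bcas2-KO replicate 3 (0.0598).

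Those of cldnc (ENSDARG00000015955) were at 26.1, 31.5 and 40.1 CPM in WT and at 21.2, 20.4 and 22.2 CPM in bcas2-KO. The WT libraries were spread and the bcas2-KO libraries close together, and the groups did not overlap. The gene was 1.53-fold lower (log2 -0.61, SE 0.14; adjusted p = 0.0174 in edgeR), and the call was lost without WT replicate 2 (adjusted p = 0.0588) or bcas2-KO replicate 1 (0.0697), 2 (0.0631) or 3 (0.0507). Claudin 7 is known in mammals from gut and kidney epithelium. Transcripts of cldn7a were at 70.8, 98.9 and 155.8 CPM in WT and at 65.9, 53.3 and 64.0 CPM in bcas2-KO. The WT libraries differed more than 2-fold from each other and the gene was not called (-0.83, SE 0.30, adjusted p = 0.112), except without WT replicate 1 (-1.05, adjusted p = 0.0162) and in the 4 libraries without lens and retina transcripts (-1.09, adjusted p = 0.0473). Without WT replicate 3 the value of cldn7a was -0.47 (adjusted p = 0.0812). For cldn7b the value was -0.33 (SE 0.15, adjusted p = 0.158).

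Among claudins of the gut, cldn15la was called lower, and cldn15a, cldn15b and cldn15lb were not called. Transcripts of cldn15la (ENSDARG00000016081), whose regulatory sequence is used to label the intestinal epithelium of zebrafish, were at 44.4, 43.9 and 47.3 CPM in WT and at 40.3, 37.7 and 35.8 CPM in bcas2-KO. The groups did not overlap, and the difference was the smallest among the called genes, with a log2 fold change of -0.25 (SE 0.08, adjusted p = 0.0495, edgeR). This call stood at the threshold. It was lost with library totals alone (adjusted p = 0.149), without a filter (0.0629), with a replicate block (0.0567) and with RLE scaling factors (0.0516). The call was also lost without WT replicate 1 (0.0602), 2 (0.112) or 3 (0.122), and without bcas2-KO replicate 1 (0.0829), 2 (0.116) or 3 (0.1603). The same held in the 4 libraries without lens and retina transcripts (0.1600) and with DESeq2 (0.0608).

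The pore-forming claudin of the zebrafish gut lumen, cldn15a, was not called and had a positive value (0.11, SE 0.11, adjusted p = 0.497). Its level was 15.6, 14.2 and 13.5 CPM in WT and 14.97, 17.3 and 14.5 CPM in bcas2-KO, with overlap. The related genes cldn15b (-0.22, SE 0.14) and cldn15lb (0.03, SE 0.20) were not called, and the sign of cldn15lb was negative with upper-quartile factors and without WT replicate 2, bcas2-KO replicate 1 or bcas2-KO replicate 3 (-0.03, -0.15, -0.07 and -0.0094). The FPKM of cldn15a relative to cldn15b was 1.36, 1.24 and 1.33 in WT and 1.53, 1.73 and 1.68 in bcas2-KO, again without overlap and chosen after its values were seen. The other such ratios worked out overlapped between the genotypes. They were cldn5b to cldn5a, cldn7a to cldn7b, cldn15lb to cldn15la and cldn23b to cldn23a. Of 9 intestine markers tested, 2 fell and 0 rose, beside 9.01% lower and 10.6% higher among all genes tested. Their median log2 fold change was -0.28, and the list summed to 558.8 to 648.7 CPM in WT and 482.3 to 554.1 CPM in bcas2-KO. The brush border gene vil1 fell by 0.49, while anpepa (0.28), anpepb (0.27) and apoa4b.1 (0.05) had positive values and were not called. The part of gut cell number in the claudin values was not tested.

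The remaining claudins were low, or did not pass, or both. Claudin 10 and claudin 2 form ion pores in mammals. Transcripts of cldn10l2 were at 0.881, 0.797 and 1.26 CPM in WT and 0.315, 0.421 and 0.708 CPM in bcas2-KO. It was not called (log2 -1.03, SE 0.35, adjusted p = 0.0665), but it was without bcas2-KO replicate 3 (-1.39, adjusted p = 0.0445) and in the 4 libraries without lens and retina transcripts (-1.45, adjusted p = 0.0473). The values for cldn10b (-0.22) and cldn2 (-0.34) were not called. In the RefSeq gene order cldn10b and cldn10l2 lie next to each other, and whether their transcripts overlap was not examined. If they do, reads without strand cannot be told apart, so both values may be uncertain. For cldnj, required in zebrafish for the otoliths of the ear, the level was 1.64, 0.984 and 1.59 CPM in WT and 1.07, 0.643 and 1.08 CPM in bcas2-KO, with overlap (-0.60, SE 0.29, adjusted p = 0.179). Of 10 inner ear markers 4 fell and 0 rose, beside 9.01% lower and 10.6% higher among all genes tested. The otolith protein gene stm was at -1.03 and tecta, of the tectorial membrane in mammals, at -0.65. That list summed to 174.6 to 225.8 CPM in WT and 91.8 to 123.9 CPM in bcas2-KO. In the endothelium, periderm, intestine and ear lists DESeq2 called 0 markers higher, and 0 were higher at an unadjusted p under 0.05 in edgeR.

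The other members were not called with all 6 libraries or were not tested. The smallest SE among genes that were not called was that of cldn12, at 27.0, 26.0 and 25.3 CPM in WT and 26.0, 28.3 and 27.8 CPM in bcas2-KO (0.07, SE 0.08, adjusted p = 0.576). The value for cldnf was -0.07 (SE 0.14), and it turned positive without WT replicate 3 (0.05) or bcas2-KO replicate 2 (0.03). For cldn23a the difference was -0.36 (SE 0.15, adjusted p = 0.124), called only when WT replicate 1 was left out (-0.50, adjusted p = 0.0202) and at -0.22 without WT replicate 3 (adjusted p = 0.311), and for cldn23b it was -0.44 (SE 0.24). For cldn17, with 80 counts in all, it was -0.65 (SE 0.46). The 2 genes that failed the filter were cldng, with 56 counts over the 6 libraries, and cldn10a, with 27. Their levels, 0.117 to 0.352 CPM and 0.0308 to 0.218 CPM, overlapped between the genotypes.

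The called genes were among the abundant ones. All 8 called genes were among the 17 with a mean of at least 10 FPKM, and none of the 10 tested genes under that level was called by edgeR in the main fit. DESeq2 called 1 of these 10, cldna, and 2 had an unadjusted p under 0.05 in the main fit. With other settings edgeR did call genes under that level: cldn11b without WT replicate 1 and cldna with the replicate block. It also called cldn10l2 without bcas2-KO replicate 3, in the 4 libraries without lens and retina transcripts and with the replicate block. The SE was 0.08 to 0.35 in the first set and 0.11 to 0.46 in the second. A p that misses the threshold in the low genes does not show that their levels were the same.

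WT replicate 3 was the highest of the 6 libraries for 19 of the 27 tested claudins (70.4%), beside 24.0% of all genes tested. The ratio of its CPM to the mean of the other WT libraries had a median of 1.21 over the claudins and 0.997 over all genes tested. It lay between 1.07 for cldn15la or cldn5a and 1.39 for cldnc among the 8 called genes. The same library had the highest sums of ionocyte markers (459.4 CPM beside 365.7 and 382.7 in the other WT libraries) and of pronephros markers (460.9 beside 335.7 and 376.4). Its sums were also the highest for basal epidermis (5892 beside 5058 and 5194) and inner ear markers (225.8 beside 196.4 and 174.6). The same held for epithelial regulators, the genes of tight junctions, adherens junctions and desmosomes, and by a small margin endothelium markers (213.5 beside 197.8 and 212.6). It did not hold for periderm (27121 beside 24527 and 27131), intestine, liver, notochord or hatching gland markers. Between genotypes, 3 of 11 ionocyte markers (27.3%) and 2 of 10 pronephros markers (20.0%) fell by edgeR, beside 9.01% of all genes tested. From either list 0 rose by edgeR or DESeq2, beside 10.6% of all genes with edgeR. At an unadjusted p under 0.05, 1 ionocyte marker was higher. What set WT replicate 3 apart was not tested. Without it the median log2 fold change of the claudins was -0.30, and 5 claudins were called lower, beside 1282 of 22687 genes tested. Against WT replicates 1 and 2 alone, all 3 bcas2-KO libraries were lower in 16 of the 27, beside 23.4% of all genes. Among members at 5 CPM or more, the median coefficient of variation was 15.5% in WT and 11.8% in bcas2-KO, beside 8.44% and 7.28% for all genes at that level.

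**Figure D4:**
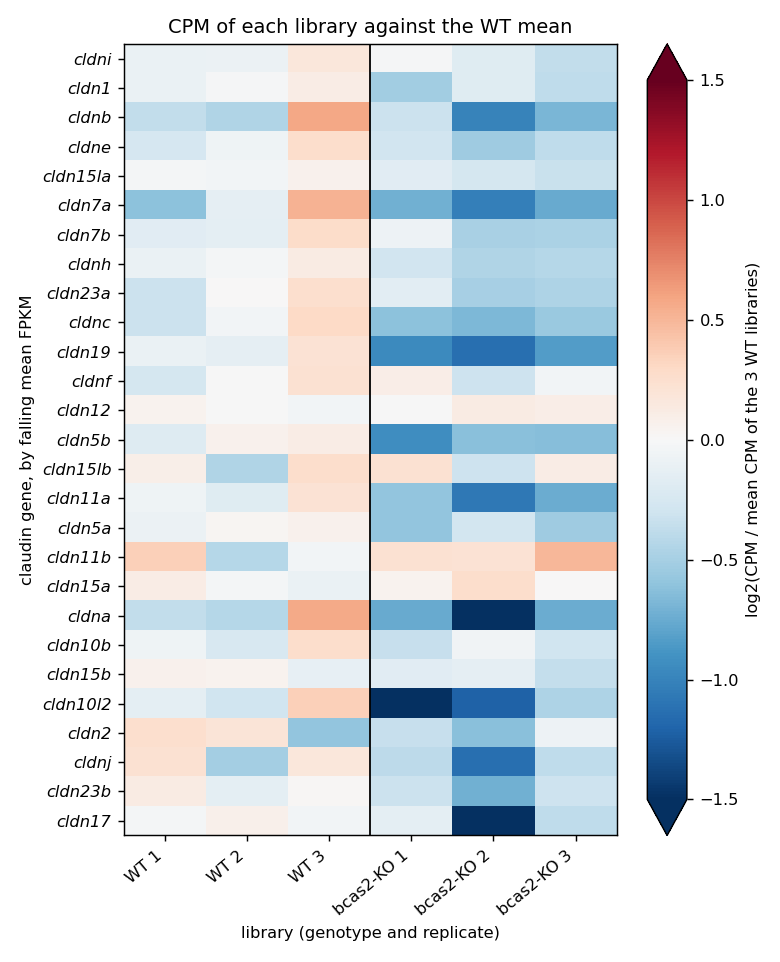
Log2 of the CPM of each library (columns) over the mean of the 3 WT libraries, for the 27 tested claudin genes (rows, by falling mean FPKM); red is above and blue below the WT mean. The third column, WT replicate 3, is red in most rows, and the bcas2-KO columns are blue in most rows, with cldn12, cldn15a and cldn11b among the exceptions.

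Claudin genes that neighbour each other were set side by side. Gene order came from a RefSeq table of the assembly GRCz12tu, in which 28 of the 29 genes had a place. In the run cldnj, cldne, cldnf and cldna, each next to the other with no protein-coding gene between, the log2 fold changes were -0.60, -0.40, -0.07 and -0.97, and 0 of the 4 were called by edgeR, 2 by DESeq2 (cldne and cldna), and 2 had an unadjusted p under 0.05. In the run cldnh, cldnc and cldnb they were -0.39, -0.61 and -0.64, and cldnh and cldnc were called. Genes of such runs can be similar in sequence. The sources used here do not give how reads matching several genes were counted, so values within a run are uncertain.

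Partners of the claudins in the junction were mixed. Of 45 tested genes for tight junction proteins other than claudins, 10 fell (22.2%) and 3 rose (6.67%), with a median log2 fold change of -0.08, beside 9.01% lower and 10.6% higher among all genes. Both occludin genes, for the other main strand protein, fell: oclna from 73.8 ± 12.75 to 55.5 ± 3.24 CPM (-0.41, SE 0.12, adjusted p = 0.0378) and oclnb from 28.9 ± 6.18 to 20.3 ± 1.77 CPM (-0.50, SE 0.15, adjusted p = 0.0403). Among scaffold genes, tjp1a (-0.30) and tjp2b (-0.35), both for ZO proteins, and cgnl1 (-0.42), for a cingulin relative, were lower. The other ZO genes tjp1b (0.20), tjp2a (0.09) and tjp3 (0.06) had positive values and were not called. The cingulin genes cgna (-0.14) and cgnb (0.10) were not called either. The polarity gene pard3bb was lower at -0.59, and so were marveld1 (-0.65), the adhesion genes epcam (-0.48), jam2a (-0.40) and esama (-0.41), the last of which is also in the endothelium list. The genes that rose were crb2b (0.60, adjusted p = 0.0341) and prkci (0.26, adjusted p = 0.0475), for parts of polarity complexes, and marveld2a (0.34, adjusted p = 0.0484), for tricellulin. Without 1 library the partner counts were 2 to 9 lower and 0 to 2 higher, and the calls over all genes moved as well. With all 6 libraries 2013 genes were lower and 2369 higher. Without WT replicate 1 the partner counts were 9 lower and 2 higher (all genes: 2358 and 2813). They were 3 and 0 without WT replicate 2 (717 and 1013), and 5 and 1 without WT replicate 3 (1282 and 1660). They were 2 and 0 without bcas2-KO replicate 1 (795 and 1179), and 5 and 0 without bcas2-KO replicate 2 (1340 and 1727). They were 4 and 0 without bcas2-KO replicate 3 (1067 and 1424), and 6 and 2 in the 4 libraries without lens and retina transcripts (1604 and 2055).

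In adherens junctions and desmosomes, the other junctions of epithelia, 8 of 23 tested genes fell (34.8%) and 0 rose by edgeR or DESeq2 (median -0.26). Of all genes tested, edgeR called 9.01% lower and 10.6% higher. The envoplakin gene evplb had a log2 fold change of -0.59, the plakophilin genes pkp3b and pkp1b -0.51 and -0.54, and nectin1b -0.47. Among adherens junction genes, ctnnb2 (-0.36) was lower as well. The genes ctnnb1 (0.05), ctnna1 (0.06), ctnnd1 (0.02), afdna (-0.02) and cdh1 (-0.36, SE 0.15, adjusted p = 0.130 in edgeR) were not called. The plakophilin genes pkp3a (-0.20), pkp1a (0.04) and pkp2 (0.34, SE 0.13, adjusted p = 0.101 in edgeR) were not called. Of the list, pkp2 was the 1 gene higher at an unadjusted p under 0.05. Among regulators known to act on claudins or on epithelial identity, 1 of 18 rose (5.56%, beside 10.6% of all genes). It was the matriptase gene st14b (0.36, adjusted p = 0.0189). By edgeR or DESeq2 0 fell (median -0.02). At an unadjusted p under 0.05 in edgeR, 3 were higher and 1 lower. The higher ones that were not called were st14a (0.25, SE 0.09, adjusted p = 0.0759) and spint1b (0.25, SE 0.09, adjusted p = 0.0778). The grainyhead gene grhl1, for a transcription factor of surface epithelia, had -0.30 (SE 0.12, adjusted p = 0.121).

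The name rule does not reach every claudin. The Ensembl symbol table gives claudin symbols to 8 further genes that carry other names in the deposited table. Of these, 6 passed the filter, 0 were called by edgeR or DESeq2, and 2 were lower at an unadjusted p under 0.05. The most abundant was cldn8.2, of the claudin 8 group that is known from the kidney tubule of mammals, with 29.9 ± 1.83 CPM in the WT pools against 26.3 ± 1.02 CPM in those of bcas2-KO (log2 -0.19, SE 0.08, adjusted p = 0.144). The values of cldn29 (-0.35), cldn30 (-0.28) and cldn10d (-1.35, SE 0.56) were not called either. Of the rows that the rule left out by name, edgeR called cldnk (-0.44, SE 0.12, adjusted p = 0.0325) and cldnd1a (-0.36, SE 0.10, adjusted p = 0.0365) lower, beside 9.01% of all genes tested. It did not call cldnd (-0.14) or cldnd1b (0.13).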

How the data were processed

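Per the labels' protocols, RNA was extracted with TRIzol and libraries were made with a NEBNext Ultra kit and read as pairs on a HiSeq instrument. The authors deposited unnormalized read counts per Ensembl gene, as whole numbers, and FPKM for the same genes, scaled by gene length and library size. STAR 2.6.1a, featureCounts 1.6.0, cutadapt 1.15, DESeq2 1.22.1 and StringTie 1.3.3b, and the build GRCz11, are named per the submitters' processing notes, with no roles. Annotation release and strand setting: not given in the sources used here.

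Columns were matched to samples by label. Genes were kept with filterByExpr of edgeR 4.0.16 (minimum count 10), scaled by TMM factors and tested on the whole table with the quasi-likelihood test (two-sided, robust, genotype as the term) in R 4.3.3, with Benjamini-Hochberg adjustment over all 22347 genes and a threshold of 0.05. CPM are the deposited counts relative to the scaled library total. A count of 3 corresponds to 0.0587 to 0.0923 CPM, and this floor covers counting error only. The test was tested on simulated data first. Libraries of a genotype differed by 12.7 to 34.4 chi-square per degree of freedom, so none was a copy of another. Alternatives were DESeq2 1.42.0, other scalings and filters, limma 3.58.1 on log2(FPKM + 0.1), a replicate block and libraries left out.

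The members, the lists, the list members named and the 4-library alternative were chosen with earlier results of these data known. Values per library are given for each called claudin, for the 5 claudins with the highest mean FPKM, and for further claudins chosen after their values were seen. Of the tight junction partners all called members are named. Of the other lists only some members are named, in the periderm list not those with the smallest p. Of the ionocyte, pronephros and basal epidermis lists no member is named.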

Additional observations from a re-analysis of the deposited data

How the results depend on the processing

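Of the 8 claudins called lower, cldn19, cldn5b and cldn11a stayed called under all 15 alternatives, and the other 5 lost the call under at least 1. None of the 8 changed sign. A further 6 genes were called under at least 1 alternative: cldne, cldn7a, cldn23a, cldna, cldn10l2 and, as the single one higher, cldn11b. The count of claudins called lower was 7 to 9 under the alternatives that kept all 6 libraries, and 3 to 10 when a library was left out (called higher: 0 to 1). Their median lay between -0.45 and -0.30 in all alternatives. The count of tight junction partners called higher was 1 with upper-quartile factors, 1 with library totals, 1 with a minimum count of 50 and 0 with limma on FPKM, and 0 to 2 with a library left out. Partners called lower were 2 to 9 with a library left out and 6 in the 4 libraries without lens and retina transcripts. Calls over all genes were 1730 to 5171 with a library left out. Upper-quartile factors moved the split to 1746 higher and 2625 lower genes, against 2369 and 2013, and the median of all genes to -0.08. The uncalled genes that changed sign were cldn15lb (-0.0292 with upper-quartile factors, and -0.15 to 0.18 with a library left out) and cldnf (-0.18 to 0.0513 with a library left out). The cause was not tested.

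Labels give both genotypes the replicate numbers 1 to 3. Deviations of same-numbered libraries correlated at -0.12, 0.40 and -0.0061, and only the pair numbered 2 correlated best with its own number. WT replicate 1 correlated at 0.25 with bcas2-KO replicate 3, both set apart by lens and retina transcripts. WT replicate 3 correlated at 0.21 with bcas2-KO replicate 1, and the remaining values were negative. The labels name no pairs, so the main fit used none. The replicate block of the alternatives joined libraries of the same number, though those numbered 1 and 3 did not correlate positively (-0.12 and -0.0061). A block that joins WT replicate 1 with bcas2-KO replicate 3, and WT replicate 3 with bcas2-KO replicate 1, was not fitted. With the replicate block 9 claudins were called lower and 0 higher, and 4922 genes in all, against 4382. The block added cldna (adjusted p = 0.0130) and cldn10l2 (0.0379) and lost cldn15la (0.0567). The SE was 0.08 to 0.35 for the claudins at 10 FPKM or more and 0.11 to 0.46 for those under it, so both sets hold genes with wide errors.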
